A study of Mus musculus with 32 samples.

Results

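Astrocyte genes were read as a list of 36 genes expressed in astrocytes, chosen by name but with earlier results of these data known. How specific each gene is to astrocytes was not tested. All 36 had a row among the 23420 genes of the count tables, and all 36 were among the 15589 genes that passed the expression filter. The counts came from RNA-seq of striatum in 8 B6.D2 congenic mice (Line 4a) and 8 C57BL/6J (B6) mice. Line 4a mice carried a segment of chromosome 11 from the DBA/2J (D2) strain on 1 of their chromosome copies, on a B6 background, and the B6 mice were their littermates without the segment. All 16 mice were drug-naïve and about 50 days of age, so both genotypes shared background strain, age and treatment. The library of a mouse was made from striatal punches of both hemispheres, pooled, so each value is a mean over all cells of the tissue and not a value of sorted astrocytes. The study's methods name both sexes and home cages, which the labels do not assign to mice and which were not used here. The question for the list was whether the genotypes differed in astrocyte transcripts and how these genes varied between mice.

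Astrocytes clear glutamate and potassium from around synapses, return glutamine to neurons, cover blood vessels with their endfeet and are joined to each other by gap junctions. In striatum they surround the GABAergic projection neurons and the excitatory inputs from cortex and thalamus. The 36 genes include transporters, channels, gap junction proteins, metabolic enzymes, receptors, secreted proteins, transcription regulators and the metallothioneins, which are small cysteine-rich proteins that bind zinc and copper.

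Expression is given as CPM, counts divided by the library's total on genes and scaled between libraries by the TMM method, and a fold change is the log2 ratio of congenic to B6 with its standard error (SE) from edgeR's quasi-likelihood test. An unadjusted p under 0.05 was used to describe single genes, and the false discovery rate (FDR) was computed over all 15589 genes. Every astrocyte gene was detected in every mouse, with *Sox9* in B6 mouse 2 the lowest value at 24.6 CPM. Together the 36 genes took 1.55% to 1.73% of the reads on genes in B6 mice and 1.57% to 1.88% in congenic mice. *Atp1b2*, *Aldoc*, *Gfap* and *Sox9* are the 4 members on chromosome 11, where *Atp1b2* spans 69599728 to 69605978 in GRCm38.p6. *Aldoc*, *Gfap* and *Sox9* start further along, at 78323073, 102887336 and 112782210. The congenic locus, as the study gives it on an older genome build, ends before each of these genes. An effect of the segment on them was not tested.

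The metallothionein genes *Mt1*, *Mt2* and *Mt3* lie next to each other on chromosome 8 and moved together in the library that stood furthest apart, so their promoters are shown first. In that library, congenic mouse 1, deviations followed exon length, and these genes are the shortest members. Without it their log2 fold changes were −0.05, −0.02 and −0.08. A part of the promoter matches in the expression values was not tested. Each window runs from 250 bases before to 50 bases after the start site that the RefSeq promoter table used, on the plus strand of GRCm38.p6, at chr8:94178839-94179138 for *Mt1*, chr8:94172368-94172667 for *Mt2* and chr8:94152357-94152656 for *Mt3*. The *Mt1* gene begins at position 94178883 in the RefSeq gene table, inside its window, so the start site used for *Mt1* lies downstream of that position. Capitals mark matches to TGCACNC or TGCGCNC, the core of the metal response element bound by the zinc-sensing factor MTF-1, searched on both strands.
Mt1: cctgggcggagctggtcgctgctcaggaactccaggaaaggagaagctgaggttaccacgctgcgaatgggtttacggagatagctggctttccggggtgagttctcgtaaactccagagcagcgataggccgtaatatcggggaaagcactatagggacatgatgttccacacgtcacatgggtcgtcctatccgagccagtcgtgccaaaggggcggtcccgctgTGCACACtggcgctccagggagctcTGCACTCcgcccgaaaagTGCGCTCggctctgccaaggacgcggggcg
Mt2: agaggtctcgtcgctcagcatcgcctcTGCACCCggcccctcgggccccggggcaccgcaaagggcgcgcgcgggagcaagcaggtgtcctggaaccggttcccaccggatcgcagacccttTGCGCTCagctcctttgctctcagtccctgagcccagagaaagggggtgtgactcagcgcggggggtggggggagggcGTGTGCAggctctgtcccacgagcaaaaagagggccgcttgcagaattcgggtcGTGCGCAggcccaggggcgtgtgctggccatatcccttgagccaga
Mt3: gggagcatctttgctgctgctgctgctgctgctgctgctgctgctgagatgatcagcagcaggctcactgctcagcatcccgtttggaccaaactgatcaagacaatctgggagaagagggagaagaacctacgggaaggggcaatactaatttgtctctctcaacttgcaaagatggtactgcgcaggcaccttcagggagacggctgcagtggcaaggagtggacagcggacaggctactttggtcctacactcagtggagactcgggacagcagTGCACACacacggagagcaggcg
The window of *Mt1* held 3 matches, that of *Mt2* held 4 and that of *Mt3* held 1, and the matches did not overlap each other. Of all 32851 RefSeq promoter windows of this length, 25.7% held at least 1 match. Of the 36 genes, 31 had an entry in the promoter table, with 37 windows, and 10 of these windows held a match. A match is a run of letters in the window, and no binding was measured in these mice.

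Libraries held 19032826 to 33748353 reads on genes in B6 mice and 24912413 to 32085311 in congenic mice. Congenic mouse 1 stood apart: 10.2% of its reads fell on no gene and 27.3% had more than 1 alignment, against 11.3% to 15.9% and 19.5% to 21.4% in the other 15 mice, of which B6 mouse 8 had the 11.3%. For that reason, values without congenic mouse 1 stand beside the results below that it moved most. Cortical neuron markers, which a punch can take in from tissue around the striatum, were lower in congenic mice. Of 10, 6 were lower at an unadjusted p under 0.05, against 5.14% of all genes tested. Their median log2 fold change was −0.45, and their summed level was 581 to 916 CPM in B6 and 436 to 795 CPM in congenic mice. Their part in the astrocyte values was not tested. In bulk tissue, fewer cells of a type and less RNA per cell cannot be told apart.

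Of the 36 astrocyte genes, 32 had a higher mean in congenic mice, and the median log2 fold change was 0.10, against 54.9% of genes and a median of 0.01 over all genes tested. With an unadjusted p under 0.05, 6 of 36 (16.7%) were higher in congenic mice, where 4.86% of all genes tested were higher at this threshold. None of the 36 was lower at this threshold, against 5.14% of all genes tested. No astrocyte gene passed an FDR of 5%, which 0.00641% of all genes (1 gene) passed, and the lowest FDR among the members was 0.386. The study, whose edgeR model included home cage, reported many more genes at an FDR of 5%. The reason for this difference was not tested. The genotypes overlapped for all 36 members, and they did not overlap for 0.0577% of all genes tested. Without congenic mouse 1, 5 of the 36 were higher at an unadjusted p under 0.05, against 5.82% of all genes, 26 had a higher mean, and the median was 0.04. Leaving out B6 mouse 8 as well left 2, *Hepacam* and *Itih3*, against 5.44% of all genes. Mice 1 to 4 of each genotype were sequenced on lanes 5 and 6, and mice 5 to 8 on lanes 7 and 8. In mice of lanes 5 and 6 alone none of the 36 had an unadjusted p under 0.05, with a median log2 fold change of 0.14, against 1.64% of all genes higher. In mice of lanes 7 and 8 alone 7 of the 36 were higher, with a median of 0.05, against 4.35% of all genes.

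**Figure D1:**
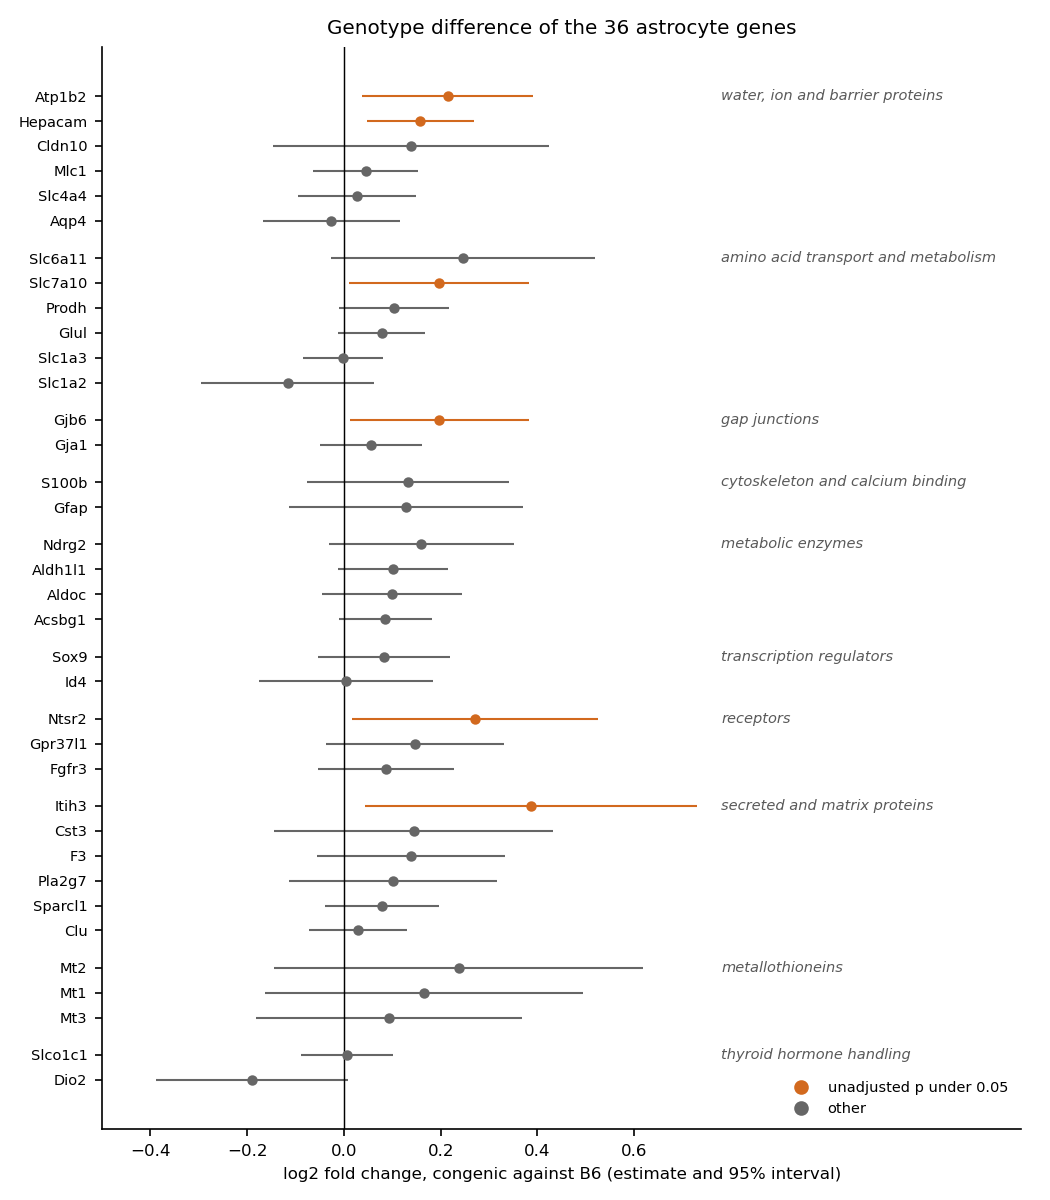
Log2 fold change of congenic against B6 mice (x axis) for each of the 36 astrocyte genes (y axis, grouped by role), with bars for the 95% interval of the quasi-likelihood fit on 8 mice per genotype. The 6 orange genes had an unadjusted p under 0.05, and the values ran from −0.19 for Dio2 to 0.39 for Itih3.

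Among the water, ion and barrier proteins, *Hepacam* and *Atp1b2* were the members with the smallest p of the whole list. *Hepacam* encodes GlialCAM, an adhesion protein of astrocyte junctions and endfeet that binds MLC1. It ran from 104 to 127 CPM (median 120.3) in B6 and from 114 to 145 CPM (median 132) in congenic mice. The mean was 118 ± 7.32 CPM in B6 and 132 ± 9.97 CPM in congenic mice (SD, n = 8 each). The highest B6 mouse was exceeded by 6 congenic mice, while congenic mouse 2 lay among the lower B6 mice. Its log2 fold change was 0.16 ± 0.05 (SE, p = 0.00676, FDR 0.386), with an exact permutation p of 0.00855, and it was 0.14 (p = 0.0107) without congenic mouse 1.

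*Atp1b2* encodes the glial beta subunit of the sodium pump. B6 mice held 405 to 555 CPM (median 494) and congenic mice 470.3 to 721 CPM (median 554). Means were 483 ± 51.9 and 559.9 ± 76.5 CPM (SD, n = 8 each). The highest value was that of congenic mouse 1, and 3 B6 mice lay below every congenic mouse. Its log2 fold change of 0.21 ± 0.08 (SE, p = 0.0178, FDR 0.431, exact permutation p = 0.026) became 0.15 (p = 0.0361) without congenic mouse 1, and 0.13 (p = 0.0649) when B6 mouse 8 was left out too. In mice of lanes 5 and 6 it was 0.20 and in mice of lanes 7 and 8 it was 0.23, and for *Hepacam* these values were 0.15 and 0.16.

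*Aqp4*, the water channel of astrocyte endfeet, did not follow them. It ran from 157 to 188 CPM (median 177) in B6 and from 145 to 200.2 CPM (median 174) in congenic mice, and congenic mice held both the lowest and the highest value. Its log2 fold change was −0.03 ± 0.07 (SE, p = 0.695, FDR 0.91). *Mlc1*, whose product pairs with GlialCAM, had a log2 fold change of 0.04 ± 0.05 (SE, p = 0.392), and 0.014 without congenic mouse 1. *Slc4a4*, a sodium bicarbonate cotransporter, had 0.03 ± 0.06 (SE, p = 0.643), and 0.058 without it. *Cldn10*, a claudin, had 0.14 ± 0.13 (SE, p = 0.313), where congenic mouse 1 held 62.2 CPM and the other 7 congenic mice at most 33.9 CPM. When that mouse was left out, the sign for *Cldn10* turned to −0.03.

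The glutamate transporters differed little between genotypes. *Slc1a2* (GLT-1), which takes up most synaptic glutamate, was the most counted member, at 3907 to 4660.0 CPM (median 4507) in B6 and 2826 to 4529 CPM (median 4182) in congenic mice. Congenic mouse 1 held the lowest value, and only 1 congenic mouse lay above the B6 median. A log2 fold change of −0.12 ± 0.08 (SE, p = 0.178, FDR 0.638) was found with all mice and −0.06 (p = 0.326) without congenic mouse 1. *Slc1a3* (GLAST), the other astrocyte glutamate transporter, ran from 670.4 to 733 CPM (median 700.1) in B6 and from 651 to 730.1 CPM (median 700.4) in congenic mice. The genotypes covered nearly the same range, and the log2 fold change was −0.0018 ± 0.04 (SE, p = 0.962, FDR 0.99). Its SD within genotype was 0.05 on the log2 scale. This was at the 1.98th percentile of tested genes with a mean CPM of at least that of *Sox9*, the lowest member.

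*Glul*, glutamine synthetase, was among the 3 members with the highest level per kilobase of exon, at 526.3 CPM per kilobase in B6 mice. It held 1687 to 1832 CPM (median 1746) in B6 and 1728 to 1981 CPM (median 1859) in congenic mice. The highest B6 mouse was exceeded by 5 congenic mice. The log2 fold change was 0.08 ± 0.04 (SE), with p = 0.0778 (FDR 0.54) in the quasi-likelihood test and 0.0141 in the exact permutation test, which takes no spread from other genes. It was 0.06 (p = 0.109) without congenic mouse 1.

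*Slc7a10* encodes Asc-1, a transporter of glycine and D-serine. It ran from 30.2 to 48.5 CPM (median 40.5) in B6 and from 42.4 to 54.4 CPM (median 44.7) in congenic mice. All 8 congenic mice lay above the B6 median, and 5 B6 mice lay below every congenic mouse. With means of 40.5 ± 6.2 and 46.3 ± 4.45 CPM (SD, n = 8 each), the log2 fold change was 0.20 ± 0.09 (SE, p = 0.0359, FDR 0.472, exact permutation p = 0.0427). It was 0.16 (p = 0.071) without congenic mouse 1 and 0.14 (p = 0.078) without B6 mouse 8, its lowest. *Slc6a11* (GAT-3), the astrocyte GABA transporter, held 166 to 365 CPM in B6 and 240.4 to 378 CPM in congenic mice, with a log2 fold change of 0.25 ± 0.13 (SE, p = 0.0678). B6 mouse 3 was its lowest library. *Prodh*, proline dehydrogenase, had a log2 fold change of 0.10 ± 0.05 (SE, p = 0.0683).

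The gap junction genes encode connexin 43 (*Gja1*) and connexin 30 (*Gjb6*), which couple astrocytes into networks. *Gja1* ran from 237 to 264 CPM (median 253) in B6 and from 219 to 292 CPM (median 260.0) in congenic mice. Congenic mice 2 and 1 were its lowest and highest libraries, and the log2 fold change was 0.06 ± 0.05 (SE, p = 0.264, FDR 0.7), or 0.03 (p = 0.506) without congenic mouse 1. *Gjb6* ran from 35.5 to 43.6 CPM (median 37.1) in B6 and from 36.6 to 62.4 CPM (median 41.4) in congenic mice. All B6 mice were exceeded by 3 congenic mice, of which congenic mouse 1 lay far above the others. Means of 38.2 ± 2.68 and 43.8 ± 7.97 CPM (SD, n = 8 each) gave a log2 fold change of 0.20 ± 0.09 (SE, p = 0.0347, FDR 0.471, exact permutation p = 0.0328), which was 0.11 (p = 0.0539) without congenic mouse 1.

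*Gfap*, the intermediate filament whose level marks reactive astrocytes, varied widely within both genotypes. It ran from 86.5 to 143 CPM (median 116) in B6 and from 87.0 to 156 CPM (median 129) in congenic mice. B6 mouse 3 and congenic mouse 2 were almost equal at the low end, and congenic mouse 8 was highest. The log2 fold change was 0.13 ± 0.11 (SE, p = 0.269, FDR 0.701). *S100b*, a calcium-binding protein, had 0.13 ± 0.10 (SE, p = 0.192), with congenic mouse 1 at 299 CPM and the other congenic mice at 204 CPM or less, and its estimate was 0.02 (p = 0.663) without that mouse. Of 12 tested genes of a reactive astrocyte list, *S1pr3* alone had an unadjusted p under 0.05 (log2 fold change 0.16, p = 0.0209), where 4.86% of all genes tested were higher. A higher mean in congenic mice was found for 11 of the 12, against 54.9% of all genes tested, and the median log2 fold change was 0.097. Without congenic mouse 1 it was again 11 of 12, with a median of 0.103. The other 3 of the list, *Lcn2*, *Timp1* and *Cxcl10*, did not pass the expression filter.

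Metabolic enzymes had small positive estimates. *Aldh1l1*, a folate enzyme widely used to mark astrocytes, held 58.0 to 76.9 CPM (median 71.2) in B6 and 69.6 to 81.5 CPM (median 73.6) in congenic mice. The highest B6 mouse was exceeded by 2 congenic mice, and 3 B6 mice lay below every congenic mouse. The log2 fold change was 0.10 ± 0.05 (SE, p = 0.07, FDR 0.532). *Aldoc*, aldolase C of glycolysis, had 0.10 ± 0.07 (SE, p = 0.159), *Acsbg1*, a long-chain acyl-CoA synthetase, had 0.09 ± 0.04 (SE, p = 0.0716), and *Ndrg2*, grouped here with the enzymes by its hydrolase-like fold, had 0.16 ± 0.09 (SE, p = 0.0879). None of these 4 genes had a p under 0.05. Leaving out congenic mouse 1 lowered *Aldoc* to 0.03 (p = 0.446), *Ndrg2* to 0.06 (p = 0.22) and *Acsbg1* to 0.06 (p = 0.135). Of the transcription regulators, *Sox9*, which directs astrocyte formation, had 0.08 ± 0.06 (SE, p = 0.21) with all mice and 0.05 (p = 0.392) without congenic mouse 1, and *Id4*, an inhibitor of DNA binding, had 0.0041 ± 0.08 (SE, p = 0.961).

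Of the 3 receptors, *Ntsr2*, a neurotensin receptor, had the largest estimate. It ran from 107 to 142 CPM (median 125) in B6 and from 123 to 252 CPM (median 137) in congenic mice. Congenic mouse 1 held the 252 CPM, while the next congenic mouse held 142 CPM, close to the highest B6 mouse. Means were 124 ± 11.5 and 149.7 ± 41.6 CPM (SD, n = 8 each), and the log2 fold change was 0.27 ± 0.12 (SE, p = 0.035, FDR 0.471, exact permutation p = 0.021). Leaving out congenic mouse 1 gave *Ntsr2* a log2 fold change of 0.12 (p = 0.0317), and leaving out B6 mouse 8 too gave 0.09 (p = 0.0595). *Fgfr3*, a fibroblast growth factor receptor, had 0.09 ± 0.07 (SE, p = 0.201), and 0.12 (p = 0.0353) without congenic mouse 1, its lowest congenic library. *Gpr37l1*, an orphan receptor of glia, had 0.15 ± 0.09 (SE, p = 0.104), with all 8 congenic mice above the B6 median, and 0.05 (p = 0.273) without congenic mouse 1.

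**Figure D2:**
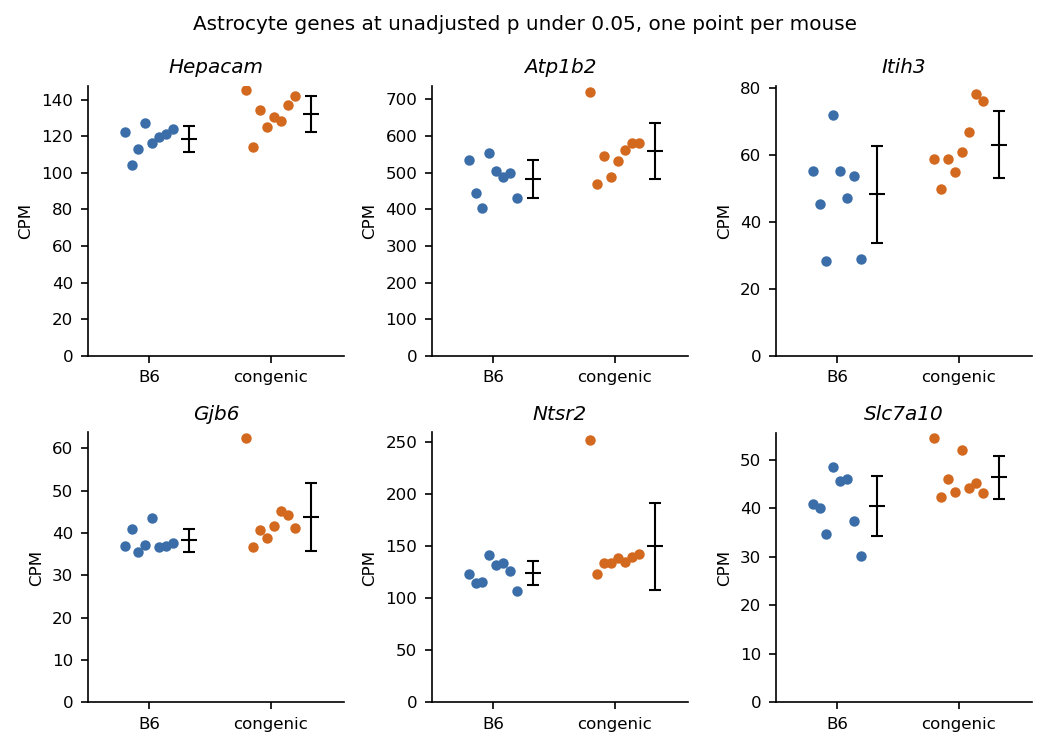
CPM (y axis, from 0) of the 6 astrocyte genes with an unadjusted p under 0.05, 1 point per mouse in order of mouse number, with the mean and SD of 8 mice in black. Congenic mouse 1, the leftmost orange point, is the highest congenic mouse for all but Itih3, and the genotypes overlap in each panel.

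Among the secreted proteins, *Itih3*, a heavy chain of the inter-alpha-trypsin inhibitor that binds hyaluronan, had the largest fold change of the list. Its SD within genotype was also the largest of the list, 0.37 on the log2 scale. This was at the 97.7th percentile of tested genes with a mean CPM of at least that of *Sox9*, the lowest member. *Itih3* ran from 28.2 to 72.1 CPM (median 50.4) in B6 and from 49.7 to 78.1 CPM (median 59.9) in congenic mice. B6 mice 3 and 8 stood at the low end, 0.97 and 0.94 below the median of the 16 mice on the log2 scale, and congenic mice 7 and 8 at the high end. Means were 48.2 ± 14.5 and 63.1 ± 9.95 CPM (SD, n = 8 each). The log2 fold change was 0.39 ± 0.16 (SE, p = 0.0262, FDR 0.457, exact permutation p = 0.0297). It was 0.40 (p = 0.0248) without congenic mouse 1 and 0.30 (p = 0.0543) without B6 mouse 8. By lanes it was 0.15 (p = 0.54) in mice of lanes 5 and 6 and 0.61 (p = 0.00442) in mice of lanes 7 and 8, and the difference between the lane pairs was not tested.

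*Cst3*, the protease inhibitor cystatin C, and *Sparcl1* (hevin), a matrix protein that promotes synapse formation, had the highest levels per kilobase of exon, 874 and 608 CPM per kilobase in B6 mice. *Cst3* ran from 928 to 1258 CPM (median 1091) in B6 and from 1004 to 2186 CPM (median 1098) in congenic mice. The medians were nearly equal and congenic mouse 1 alone lay above the B6 range. Its log2 fold change of 0.14 ± 0.13 (SE, p = 0.296, FDR 0.716) turned to −0.03 (p = 0.62) without that mouse. *Sparcl1* ran from 1639 to 2081 CPM (median 1903) in B6 and from 1838 to 2129 CPM (median 2013) in congenic mice, with B6 mouse 3 lowest and congenic mouse 7 highest. The log2 fold change was 0.08 ± 0.05 (SE, p = 0.17, FDR 0.629). *Clu*, clusterin, had 0.03 ± 0.05 (SE, p = 0.541), *Pla2g7*, a secreted phospholipase, had 0.10 ± 0.10 (SE, p = 0.322) and *F3*, tissue factor, had 0.14 ± 0.09 (SE, p = 0.143). For these 3 genes the congenic mouse 1 library was the highest of all 16, and without it *Clu* was 0.00014, *Pla2g7* turned to −0.011 (p = 0.848) and *F3* was 0.04 (p = 0.443).

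The metallothioneins had positive estimates with wide errors. *Mt1* ran from 127 to 164 CPM (median 146) in B6 and from 128 to 318 CPM (median 143) in congenic mice. *Mt2* ran from 58.3 to 74.4 CPM (median 69.8) in B6 and from 57.5 to 171 CPM (median 71.9) in congenic mice. For both genes the top of the range was congenic mouse 1 alone, at 1.14 and 1.27 above the median of the 16 mice on the log2 scale, and the other 7 congenic mice lay at or below 151 and 74.4 CPM. *Mt1* had a log2 fold change of 0.17 ± 0.15 (SE, p = 0.295, FDR 0.715), and *Mt2* 0.24 ± 0.18 (SE, p = 0.198, FDR 0.653). *Mt3*, the brain form, had 0.09 ± 0.13 (SE, p = 0.478). When congenic mouse 1 was left out, the estimates of *Mt1*, *Mt2* and *Mt3* became −0.05, −0.02 and −0.08, each with p above 0.05. Of 10 genes of a metal-handling list, 2 were lower at an unadjusted p under 0.05, against 5.14% of all genes tested, and 6 had a higher mean. The 2 were the zinc transporters *Slc39a10* (log2 fold change −0.21, p = 0.00245) and *Slc30a3* (−0.69, p = 0.0262), of which *Slc30a3* loads zinc into synaptic vesicles of excitatory neurons.

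Of the genes of thyroid hormone handling, *Dio2* was the lower one. *Dio2*, the deiodinase that makes active thyroid hormone in astrocytes, held 99.9 to 139 CPM (median 116) in B6 and 73.9 to 119.5 CPM (median 108) in congenic mice. Congenic mouse 1 was lowest and only 1 congenic mouse exceeded the B6 median. Its log2 fold change of −0.19 ± 0.09 (SE, p = 0.0535) was the lowest of the list, and −0.13 (p = 0.0839) without congenic mouse 1. *Slco1c1*, a thyroid hormone carrier, had 0.0065 ± 0.04 (SE, p = 0.884).

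Many of the 36 genes were high or low in the same mice. The number of members above the median of the 16 mice was 5 to 22 in B6 and 6 to 30 in congenic mice. Congenic mice 5, 6, 7 and 8 had 27, 27, 30 and 26 members above the median, as the map of members by mouse shows. Congenic mouse 2 had 6 and B6 mice 1 and 3 had 5 and 6. In congenic mouse 1, with 29 members above the median, 12 members lay more than 0.5 above it on the log2 scale and 2, *Slc1a2* and *Dio2*, more than 0.5 below it. In the other mice at most 2 members did so in either direction.

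**Figure D3:**
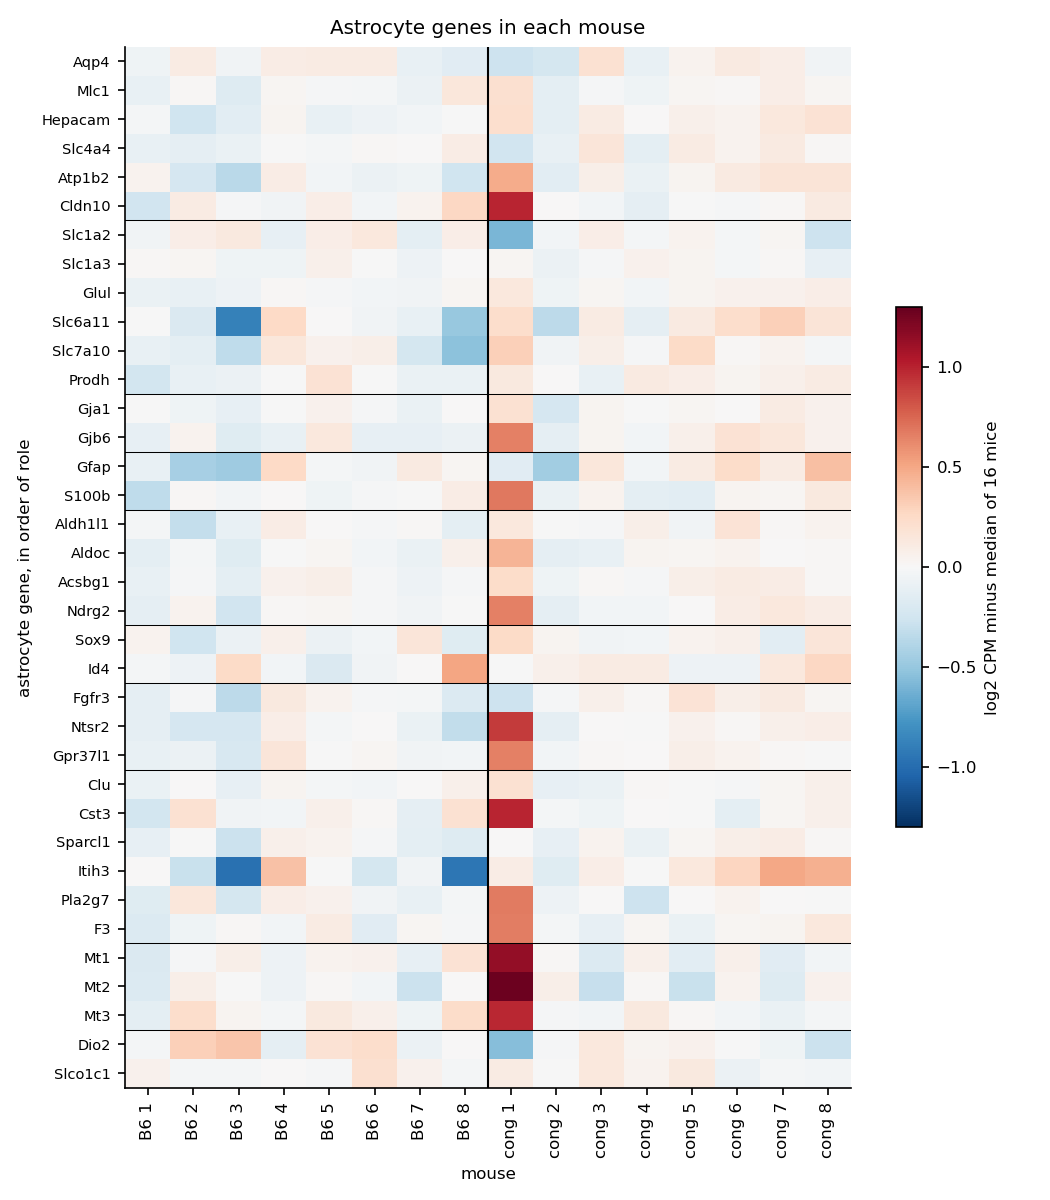
Map of the 36 astrocyte genes (rows, in order of role) in the 16 mice (columns), coloured by log2 CPM minus the median of the 16 mice (red above, blue below). Congenic mouse 1 has deviations up to 1.27 for Mt2, and B6 mice 3 and 8 have their lowest values for Itih3.

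The deviations of congenic mouse 1 followed the length of the genes. Across the 36 members, Spearman's rho between the deviation and exon length was −0.79, and across 14628 genes with a known length it was −0.56, where all values of a mouse come from 1 library. In the other 15 mice it ran from −0.27 to 0.58 across members and from −0.13 to 0.23 across genes. The 12 members with the shortest exons had a median deviation of 0.68 in this mouse, with 11 of them above the median. The 12 of middle length had a median of 0.21, and the 12 longest had −0.06. *Mt1*, *Mt2* and *Mt3*, with 753, 556 and 538 bp of exon, are the shortest members, and *Slc1a2*, with 13153 bp, is the longest.

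**Figure D4:**
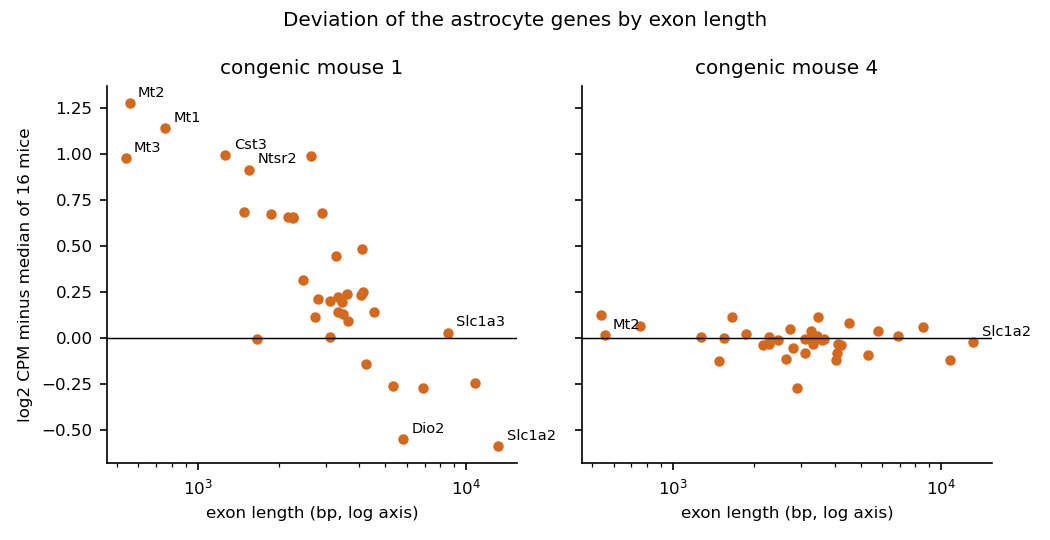
Deviation of each astrocyte gene from the median of the 16 mice (y axis, log2 CPM) by exon length (x axis, bp, log axis), in congenic mouse 1 (left) and congenic mouse 4 (right). In congenic mouse 1 the values fall with length from 1.27 for Mt2 to −0.59 for Slc1a2 (rho −0.79), and in congenic mouse 4 they stay near 0 (rho −0.18).

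B6 mice 3 and 8 shared low values of a few members. *Itih3* was described above. *Slc6a11* lay 0.88 and 0.50 below the median of the 16 mice on the log2 scale in these 2 mice, and *Slc7a10* 0.33 and 0.54 below. Markers of hypothalamus and ventral forebrain summed to 40.7 and 43.3 CPM in B6 mice 3 and 8, 50.9 to 61.5 CPM in the other B6 mice and 44.9 CPM in congenic mouse 2, the lowest congenic mouse. Within this marker list the B6 mean was 20.2 CPM for *Six3os1*, against 0.75 CPM for *Gal* and 0.35 CPM for *Avp*. Striatal projection neuron genes summed to 7539 and 8466 CPM in B6 mice 3 and 8. Their sums were 5737 to 7349 CPM in the other B6 mice and 6244 to 7362 CPM in congenic mice. The part of neighbouring tissue in the low astrocyte values was not tested.

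Members were compared in 6 pairs with a shared role over the 16 mice. *Mt1* and *Mt2* had Pearson's r of 0.97 (permutation p = 6e-05, adjusted 0.00027) and Spearman's rho of 0.66 (permutation p = 0.00626, adjusted 0.0125). Without B6 mouse 1 and congenic mouse 1, which lay farthest from the median of *Mt1*, r was 0.76. Within B6 it was 0.69 (exact permutation p = 0.0569), and in mice of lanes 7 and 8, which do not include congenic mouse 1, 0.75 (exact permutation p = 0.0414). *Mt1* and *Mt3* had r = 0.96 (permutation p = 9e-05, adjusted 0.00027) and rho = 0.78 (permutation p = 0.00057, adjusted 0.00171), with r = 0.66 without the same 2 mice, 0.79 within B6 (exact permutation p = 0.0199) and 0.80 in lanes 7 and 8 (exact permutation p = 0.0145). Over the 15 mice other than congenic mouse 1, r was 0.765 for *Mt1* and *Mt2* and 0.716 for *Mt1* and *Mt3*.

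The connexins *Gja1* and *Gjb6* had r = 0.78 (permutation p = 0.00055, adjusted 0.0011) and rho = 0.84 (permutation p = 0.00012, adjusted 0.00072). It was 0.70 without congenic mice 1 and 2, 0.58 within B6 (exact permutation p = 0.132) and 0.79 within congenic mice (exact permutation p = 0.05). In mice of lanes 5 and 6 r was 0.81 and in mice of lanes 7 and 8 it was 0.71. *Slc1a2* and *Slc1a3* had r = 0.17 (permutation p = 0.542, adjusted 0.542) and rho = 0.27 (permutation p = 0.309, adjusted 0.309), although r was 0.585 over the 15 mice other than congenic mouse 1, 0.87 in mice of lanes 7 and 8 and −0.26 in mice of lanes 5 and 6. *Slc1a2* and *Glul* had r = −0.61 (permutation p = 0.00892, adjusted 0.0134) and rho = −0.31 (permutation p = 0.242, adjusted 0.29). For this pair r was −0.03 without congenic mice 1 and 8, the farthest from the median of *Slc1a2*, and −0.34 without congenic mouse 1 alone. It was −0.13 within B6, −0.67 within congenic mice, −0.82 in lanes 5 and 6 and −0.445 in lanes 7 and 8, so it depended on the mice kept. *Aqp4* and *Gfap* had r = 0.36 (permutation p = 0.176, adjusted 0.211) and rho = 0.37 (permutation p = 0.158, adjusted 0.237), with r = 0.11 without congenic mice 1 and 2.

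**Figure D5:**
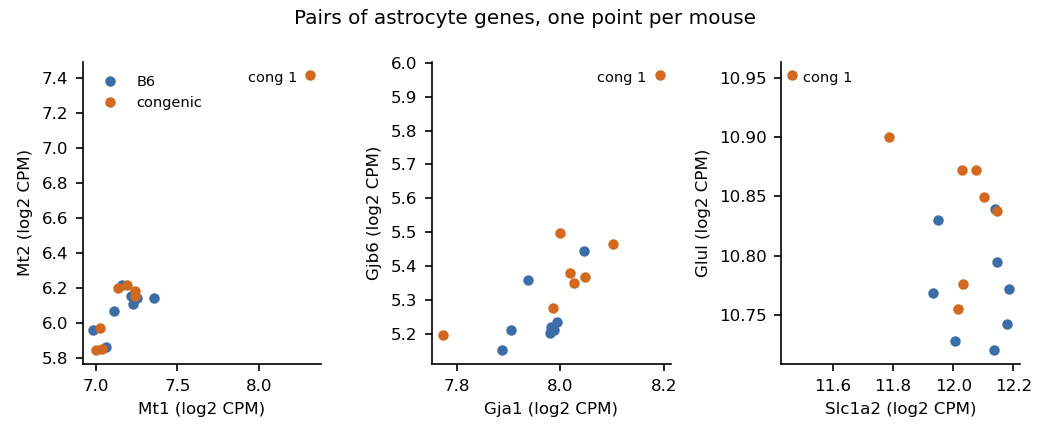
Log2 CPM of 3 pairs of astrocyte genes in 16 mice (1 point per mouse, B6 blue and congenic orange). Congenic mouse 1 lies far from the other mice in each panel, and without the 2 mice farthest from the median of the gene on the x axis r is 0.76 for Mt1 and Mt2, 0.70 for Gja1 and Gjb6, and −0.03 for Slc1a2 and Glul.

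Members differed in how closely they followed the mean of all 36, taken over standardized log2 CPM after removing genotype means. *Acsbg1* had r = 0.94, *Ndrg2* 0.92 and *Gpr37l1* 0.90 with it over 16 mice, and *Dio2* had −0.63 and *Slc1a2* −0.62. Each member is part of that mean, and the mice share their libraries with it, so these values describe the list and carry no test. Without congenic mouse 1, *Acsbg1* and *Ndrg2* stayed at 0.91 and 0.90, while *Mt1*, *Mt2* and *Mt3* dropped from 0.67, 0.65 and 0.69 to 0.23, 0.17 and 0.34. *Aqp4* and *Fgfr3* moved the other way, from 0.02 and −0.03 to 0.52 and 0.59. The 10 genes outside the list most like the mean over 16 mice included *Kcne1l* (r = 0.95), *Lgmn*, *Cntfr*, *Cyb5d2*, *Cplx1*, *Aph1a*, *Cd63*, *Sdc4* and *Timp4* (r = 0.92). Of these, *Kcne1l*, *Lgmn*, *Cyb5d2*, *Cplx1*, *Cd63* and *Timp4* were also among the 10 most alike without congenic mouse 1.

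Other astrocyte genes, a list of 44 tested genes that shares none with the 36, were also mostly higher in congenic mice. This list was read in the same libraries and chosen with earlier results of these data known, so it is not independent support. Of the 44, 36 had a higher mean, 12 (27.3%) were higher and none lower at an unadjusted p under 0.05, and the median log2 fold change was 0.09, beside 4.86% of all genes tested higher. The 3 genes of smallest p were *Lfng*, a modifier of Notch signalling (log2 fold change 0.22, p = 0.00365), *Sdc4*, a heparan sulfate proteoglycan (0.25, p = 0.00376), and *Bcan*, the matrix proteoglycan brevican (0.22, p = 0.011). Each had an FDR above 0.36. Without congenic mouse 1 the count was again 12, beside 5.82% of all genes, and without B6 mouse 8 too it was 11, beside 5.44%.

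Lists of other cell types were read beside the same background of 4.86% of all genes higher and 5.14% lower. Among oligodendrocyte genes 2 of 13 were higher at an unadjusted p under 0.05 (*Aspa* and *Trf*), and 0 of 13 without congenic mouse 1. Among pan-neuronal genes 2 of 8 were lower (*Syt1*, −0.19, p = 0.003, and *Stmn2*, −0.19, p = 0.0383), and of 11 striatal projection neuron genes none passed in either direction. Cortical neuron genes with small p included *Neurod6* (−0.56, p = 0.00053) and *Slc17a7*, the vesicular glutamate transporter of cortical neurons (−0.63, p = 0.00133). At the same threshold 1 of 6 oligodendrocyte precursor, 2 of 9 endothelial, 1 of 6 mural and 1 of 12 glucocorticoid-responsive genes were higher (0 of 6, 3 of 9, 1 of 6 and 1 of 12 without congenic mouse 1), and of 7 hypothalamus and ventral forebrain genes 1 was higher and 1 lower. None of 10 microglia, 10 choroid plexus and ependyma or 8 leptomeningeal genes passed in either direction, and without congenic mouse 1 the microglial *Csf1r* and the leptomeningeal *Col1a1*, named here after their values were seen, were higher. Several glial and vascular lists had mostly higher means, as the astrocyte genes did: 10 of 10 microglia genes (median log2 fold change 0.09), 12 of 13 oligodendrocyte genes (0.11) and 8 of 9 endothelial genes (0.12). Without congenic mouse 1 these became 6 of 10 (0.02), 12 of 13 (0.05) and 9 of 9 (0.15). Microglia genes summed to 1020.4 CPM in congenic mouse 1 and to 865 CPM or less in the other congenic mice. The part of any of these cell types in the astrocyte values was not tested.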

How the data were processed

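RNA was measured by single-end sequencing of 50 bp reads from poly(A) libraries, each run on a pair of lanes (5 and 6, or 7 and 8). The authors trimmed the last base, aligned to mm10 with TopHat (TopHat2 2.0.0 per the labels, bowtie2 2.2.2 in the deposited script) and assigned reads to genes by the union mode of HTSeq 0.6.1p1, ignoring strand. The deposited values are raw counts per mouse and lane. Multiply aligned and ambiguous reads are absent from them, so any read that *Mt1* or *Mt2* shared with a near-identical copy would be missing, and antisense reads cannot be told apart. The authors also deposited the results of their own comparison (fold changes, p-values and FDR), which were not used. The labels give 3 mm punches and an age of about 50 days, and the study's methods give a smaller punch and a wider age range.

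Lane files were summed per mouse once a chi-square comparison of their counts had given 0.997 to 1.05 per degree of freedom in 15 mice. For B6 mouse 7, 1 lane file was used and the other was not analysed here. Rows that name no gene (31.7% to 38.6% of reads) stayed out of library sizes. After filterByExpr and TMM, edgeR 4.0.16 (R 4.3.3) fitted a quasi-likelihood model of genotype with no covariate, and p-values were adjusted over the whole table by Benjamini and Hochberg. The SE is the size of the log2 fold change over the square root of F, and log2 CPM has a prior count of 0.5 added. The exact two-sided permutation test of 8 against 8 mice has a smallest p of 0.000155. Pairs of genes were compared by two-sided permutation with 100000 resamples over 16 mice, exact within subsets, adjusted over 6 pairs (scipy 1.17.1). Genotype p-values rest on the spread between these mice, which the quasi-likelihood test draws in part from other genes. The part of counting error in that spread was not tested. The fit was also run on counts simulated from its own model, with changes larger than that of any member and no outlying library. That run therefore cannot show how the fit handles small changes or congenic mouse 1.

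Exon lengths came by symbol from GENCODE on NCBIM37, positions and promoters from RefSeq (GRCm38.p6). Promoters of *Clu*, *Atp1b2*, *Sparcl1*, *Aqp4* and *Sox9* were not used here. All 36 members are named. Those given in full had an unadjusted p under 0.05, one of the 3 largest SDs within genotype or of the 3 highest levels per kilobase, or were *Aqp4*, *Gfap*, *Slc1a2*, *Slc1a3*, *Gja1* or *Aldh1l1*. Of other lists, counts and up to 3 genes of smallest p are given, and a few genes that this rule names are not reported here. Members and lists were chosen with earlier results of these data known. Alternatives were RLE and upper-quartile scaling, other filters, DESeq2 1.42.0, edgeR's likelihood ratio test, a replicate block, lane pairs and leaving out mice.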

Additional observations from a re-analysis of the deposited data

Results flagged for a closer look

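In each genotype, the highest or lowest mouse for a gene was marked where its gap to the nearest other mouse was large beside the whole range of the 8 mice (Dixon's criterion at 95%). Over 36 genes and both genotypes, 72 groups were looked at and 17 values were marked, where chance marks about 1 in 20 groups. Congenic mouse 1 accounted for 15 of the 17, and since all its values come from 1 library they are not independent of each other.

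Congenic mouse 1 was marked as high for 14 genes. These were *Gjb6* (62.4 CPM, next 45.1 CPM), *Aldoc* (1168 CPM, next 888 CPM), *S100b* (299 CPM, next 204 CPM), *Ntsr2* (252 CPM, next 142 CPM), *Cldn10* (62.2 CPM, next 33.9 CPM), *Gpr37l1* (396 CPM, next 266 CPM), *Atp1b2* (721 CPM, next 581 CPM). They also included *Cst3* (2186 CPM, next 1148 CPM), *F3* (66 CPM, next 45.6 CPM), *Mt1* (318 CPM, next 151 CPM), *Mt2* (171 CPM, next 74.4 CPM), *Mt3* (325 CPM, next 179.7 CPM), *Ndrg2* (1460.5 CPM, next 1019.9 CPM) and *Pla2g7* (218 CPM, next 141 CPM). For *Fgfr3* congenic mouse 1 was marked as low, at 123 CPM where the next lowest congenic mouse had 147 CPM. The deviations of this library followed exon length, as given in the report.

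In B6 mice, *S100b* was marked as low in mouse 1 at 149 CPM, where the next lowest had 180.1 CPM, and *Slco1c1* as high in mouse 6 at 106 CPM, where the next highest had 95.02 CPM.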

How the results depend on the processing

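Under 12 alternatives other than leaving out single mice, the fold changes of single astrocyte genes kept their direction and their side of an unadjusted p of 0.05 in 392 cases, moved to the other side in 23 (13 no longer under it, 10 now under it) and changed sign in 17. *Slc1a3* became 0.0102 with upper-quartile scaling and 0.0189 in mice of lanes 5 and 6. In mice of lanes 7 and 8 *Aqp4* was 0.0521, *Cldn10* −0.0761, *Cst3* −0.0604, *Id4* −0.0295, *Mt1* −0.114, *Mt2* −0.0191, *Mt3* −0.137 and *Slco1c1* −0.0605. With 1 lane file per mouse *Id4* was −0.000741. Without congenic mouse 1 and B6 mouse 8 together, an alternative chosen after seeing the data, *Cst3* was −0.00242, *Mt1* −0.0231, *Mt2* −0.0133, *Mt3* −0.0504, *Pla2g7* −0.0119 and *Slco1c1* −0.0147.

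The count of higher astrocyte genes was 0 in mice of lanes 5 and 6 alone (500 genes in all, 0 at an FDR of 5%) and 2 without congenic mouse 1 and B6 mouse 8. In mice of lanes 7 and 8 alone it was 7, with 0 genes at an FDR of 5%. The count of lower astrocyte genes was 1 (*Dio2*) without a filter, with the likelihood ratio test and with the replicate block. Genes at an FDR of 5% numbered 25 with DESeq2, 20 with the likelihood ratio test, 2 with lane pair as a covariate, 7 without the 2 mice and 0 with the replicate block. The causes were not tested.

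Mice with the same number deviated together (correlation over 0.1) in 3 of 8 pairs (−0.115 to 0.364, 2 of 8 best with their own number), so the numbers were not taken as pairs. The replicate block gave 5 higher astrocyte genes and 1377 genes at an unadjusted p under 0.05.

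Leaving out 1 mouse at a time, higher astrocyte genes numbered 3 (without B6 mouse 3 or 8, against 3.45% and 3.82% of all genes) to 11 (without congenic mouse 2, against 5.53%), lower ones 0 to 1, the median log2 fold change 0.04 (without congenic mouse 1) to 0.12, and genes at an FDR of 5% 1 to 4 (4 without congenic mouse 1, 3 without congenic mouse 6). *Hepacam* and *Atp1b2* kept an unadjusted p under 0.05 in all 16 of these fits, while *Gjb6* lost it in 8 (without B6 mouse 1, 3, 4, 6, 7 or 8 or congenic mouse 1 or 6), *Slc7a10* in 6 (B6 mouse 2, 3, 7 or 8, congenic mouse 1 or 5), *Itih3* in 3 (B6 mouse 8, congenic mouse 7 or 8) and *Ntsr2* in 3 (B6 mouse 2, 3 or 8). Ranges that cross 0 were −0.0597 to 0.00497 for *Aqp4*, −0.0139 to 0.0137 for *Slc1a3*, −0.0322 to 0.175 for *Cldn10*, −0.0293 to 0.179 for *Cst3*, −0.0285 to 0.0777 for *Id4*, −0.0497 to 0.208 for *Mt1*, −0.0194 to 0.294 for *Mt2*, −0.0752 to 0.125 for *Mt3*, −0.0108 to 0.143 for *Pla2g7* and −0.00936 to 0.0332 for *Slco1c1*. Every member exceeded 24 CPM in every mouse. The parts of depth and of the spread between mice in the precision were not tested.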
